A study of Homo sapiens with 6 samples.

Results

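The genes described here are 42 genes of mitosis: cyclins, kinases, kinesins, kinetochore and checkpoint proteins and their partners. They were listed by name and role with earlier results of these data known, so their direction is not independent evidence, and 41 of them were found in the deposited table of 33644 genes by matching Ensembl identifiers to gene symbols. KIF11, a spindle motor, was not analysed here. All 41 had an adjusted p-value in the authors' deposited table, and 39 had a mean normalized count of at least 72.0, the level that equals 5 per 1000000 of the summed means.

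By its labels the series set an alt-LAMA3 KO derivative (3 samples) against its HEK293T WT parent line (3 samples), each cultured without treatment and taken at day 0. HEK293T is a human embryonic kidney line with the large T antigen of SV40. The labels give neither the number of knockout clones nor whether samples of a group were separate cultures, so p-values may reflect no more than technical spread. The table holds a single comparison with no value per sample and does not name its groups. A positive log2 fold change means a higher level in what is here called the numerator group than in the denominator group. Which of these was the KO and which the WT is not known.

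The content of the table went against the labels. In the authors' deposited table, 11 of 13 markers of T lymphocytes reached a mean normalized count of 72.0, against 1 of 10 markers of HEK293-derived lines (L1CAM). The means of the authors' deposited table summed to 67086 over the T-lymphocyte markers and to 193 over the HEK293 markers, and the neurofilament genes NEFL and NEFM and the transcription factor gene SALL1 were listed at 0. CD4 and CD5, at means of 1.83 and 1.87 in the authors' deposited table, were the T-lymphocyte markers below 72.0. The lowest means fell on 9 values, with 149 to 390 genes at each, although the labels list 6 samples. The keratin genes KRT8 and KRT18 had means of 3.42 and 1.45 in the authors' deposited table. CD8A, the T-lymphocyte marker with the highest mean (27074), was 0.801 times as high in the numerator group in the authors' deposited table. The comparison below is therefore between a pair of unnamed groups, and by these markers neither can be taken as HEK293T.

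Entry into mitosis is driven by CDK1, a kinase that acts when bound to cyclin A or cyclin B and when CDC25 phosphatases have removed its inhibitory phosphates. Polo and Aurora kinases then build the spindle, kinetochores join chromosomes to its microtubules, and the spindle assembly checkpoint holds the cell until every chromosome is attached. The APC/C ubiquitin ligase with CDC20 then destroys securin and cyclin B, the chromatids part and the cell divides. Most of these mRNAs accumulate late in the cell cycle, so that their amount in a culture is known to follow the share of dividing cells. In RNA from whole cultures, fewer cells at this stage and less of an mRNA per cell cannot be told apart.

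Mitosis genes were mostly higher in the numerator group. At an adjusted p of 0.05 in the authors' deposited table, 30 of the 41 tested members (73.2%) passed as higher, 1 as lower and 10 not at all. Of all 13957 tested genes in the authors' deposited table, 29.5% passed, 14.7% as higher and 14.8% as lower. The median log2 fold change of the members was 0.58, a 1.49-fold difference, and that of all tested genes was 0. Most changes were moderate: 21 of the 30 higher members had a log2 fold change between 0.5 and 1 in the authors' deposited table, 6 were below 0.5 and 3 were at least 2-fold higher. The count depended on how strict the test was. Tested against a 1.5-fold change, CDK1, CDCA8 and DLGAP5 (7.32% of the members) were higher, against 2.36% of all genes. With every standard error multiplied by 2.03, which gives the statistics of all genes a robust spread of 1, 11 members (26.8%) were higher, against 4.3% of all genes. These 11 were AURKA, BUB1, BUB1B, CCNB1, CDCA8, CDK1, DLGAP5, MAD2L1, MKI67, NUF2 and NUSAP1. Under the remaining settings 24 to 31 members were higher, namely 24 at an adjusted p of 0.01 (11.4% of all genes), 27 with no filter on low means (9.01%), 30 among protein-coding genes (16.1%), 31 of 39 among genes of at least 72.0 (22.5%) and 31 after centring on the median gene (15.3%).

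**Figure D1:**
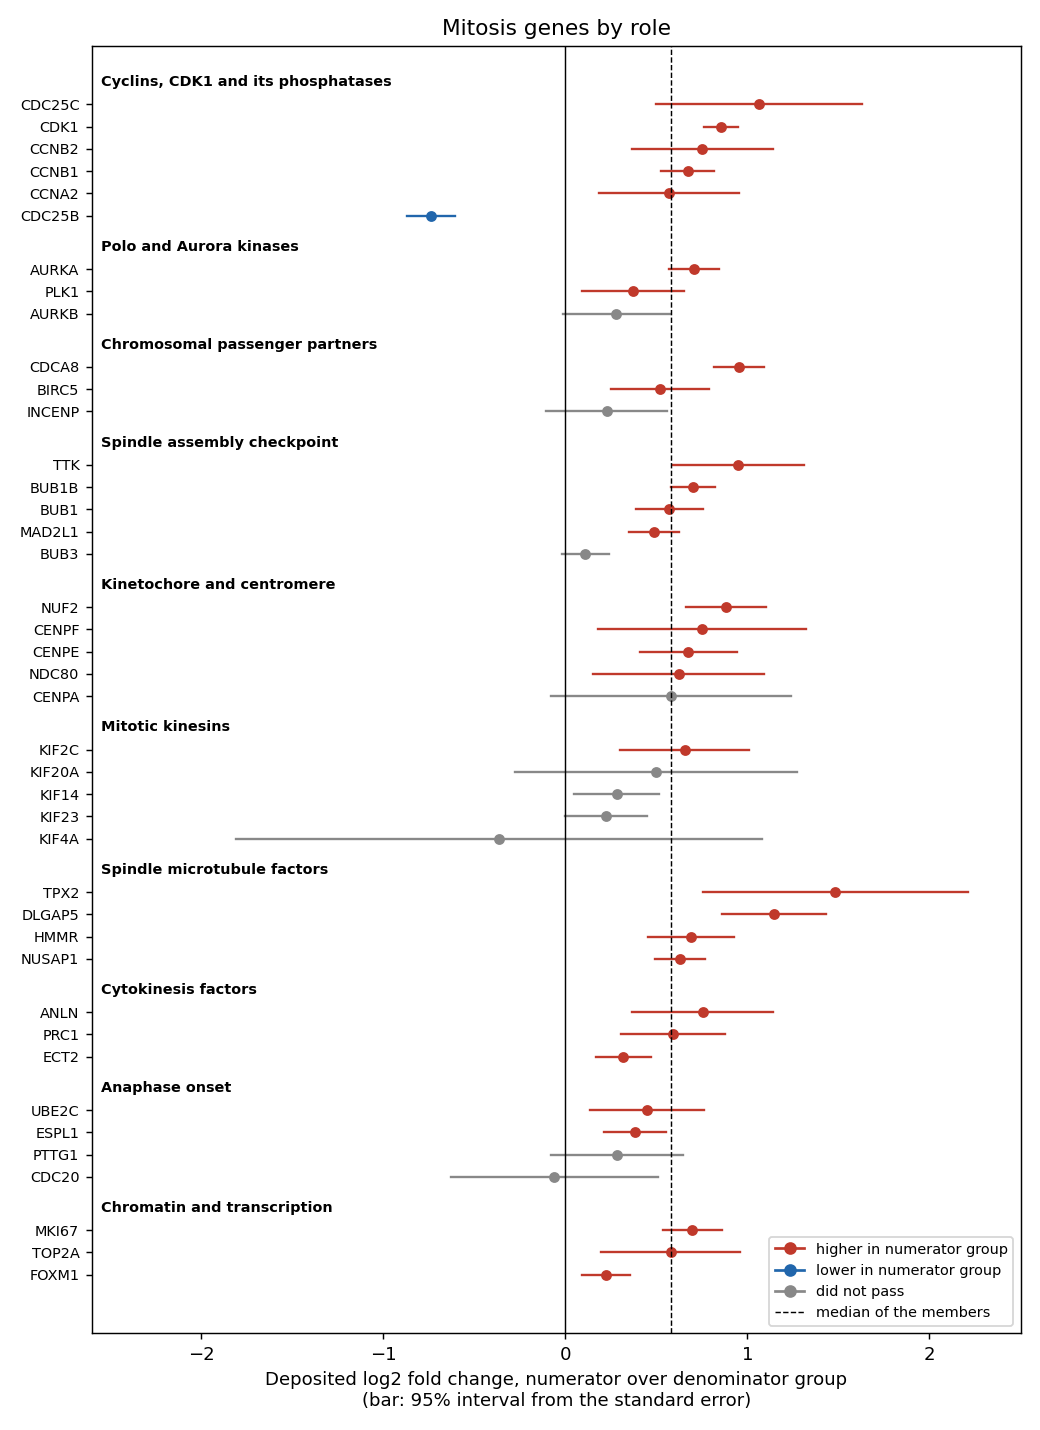
Deposited log2 fold change of each of the 41 mitosis genes (horizontal axis, numerator over denominator group), grouped by role, with the 95% interval from the standard error as a bar and the members' median of 0.58 as a dashed line. Red points passed the threshold as higher, the blue point (CDC25B, -0.74) as lower, and grey points did not pass.

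T-lymphocyte markers moved the other way, with 8 of 11 tested members lower and 0 higher in the numerator group, and 14.8% of all genes lower, in the authors' deposited table. Their level in each group cannot be given, since the table holds none, and their part in the difference of the mitosis genes was not tested.

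What the members shared beyond their roles was looked for in their promoters. Many genes of late cell cycle stages carry the cell cycle genes homology region, a short element near the start site that is bound by the MuvB complexes, often with CCAAT boxes bound by the factor NF-Y before it. The RefSeq promoter table (GRCh38.p14, 250 bases before to 50 bases after each start) held 44 windows for 34 of the 41 members. AURKA, BIRC5, BUB3, FOXM1, TPX2, TTK and UBE2C were not matched. The first spelling of the homology region, TTTGAA on either strand, was in 28 of the 44 member windows (63.6%) and in 15.2% of all 35116 windows. Within 100 bases before to 50 bases after the start it was in 25 member windows (56.8%) and in 6.84% of all windows. The second spelling, TTCGAA, was in 3 member windows (6.82%) and in 1.45% of all windows. CCAAT on either strand was in 33 member windows (75.0%) and in 34.6% of all, and TTTGAA with CCAAT in 23 (52.3%) and in 5.9%. A match is a description of the letters and no measured binding site.

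Of the 19 members with TTTGAA wholly before a start site, 14 were higher in the numerator group. This is close to the share of all members, 30 of 41 (73.2%), beside 14.7% of all tested genes. The last 120 bases before the start are shown for the 8 of these with the largest log2 fold changes, to let the position of the motifs be compared. CDC25B, the member that was lower, and CDC20, which did not pass, follow for contrast and were chosen after their values were seen. Capitals mark the first and second spelling of the homology region and the CCAAT box, each on either strand. Every stretch runs 5′ to 3′ in the direction of transcription, and where matches overlap or adjoin the capitals run on. In ANLN the run is 2 adjoining matches of the homology region, with no CCAAT box.
DLGAP5 (chr14:55191586-55191705, minus strand): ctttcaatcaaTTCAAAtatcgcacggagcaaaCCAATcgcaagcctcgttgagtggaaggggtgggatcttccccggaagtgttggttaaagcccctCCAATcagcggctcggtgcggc
CDC25C (chr5:138331805-138331924, minus strand): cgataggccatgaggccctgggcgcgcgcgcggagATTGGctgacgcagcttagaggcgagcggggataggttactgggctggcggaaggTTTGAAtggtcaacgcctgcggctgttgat
CDCA8 (chr1:37692396-37692515, plus strand): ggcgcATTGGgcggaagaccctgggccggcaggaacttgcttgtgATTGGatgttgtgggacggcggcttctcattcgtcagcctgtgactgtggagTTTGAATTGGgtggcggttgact
CDK1 (chr10:60778358-60778477, plus strand): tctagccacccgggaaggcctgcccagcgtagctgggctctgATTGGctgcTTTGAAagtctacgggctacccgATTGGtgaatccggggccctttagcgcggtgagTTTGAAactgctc
ANLN (chr7:36389742-36389861, plus strand): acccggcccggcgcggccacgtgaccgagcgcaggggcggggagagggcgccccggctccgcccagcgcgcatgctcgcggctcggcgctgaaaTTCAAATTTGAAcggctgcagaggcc
CCNB2 (chr15:59105026-59105145, plus strand): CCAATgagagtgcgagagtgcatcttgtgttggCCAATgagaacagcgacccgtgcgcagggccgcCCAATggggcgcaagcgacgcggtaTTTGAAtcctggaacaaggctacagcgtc
BUB1B (chr15:40160949-40161068, plus strand): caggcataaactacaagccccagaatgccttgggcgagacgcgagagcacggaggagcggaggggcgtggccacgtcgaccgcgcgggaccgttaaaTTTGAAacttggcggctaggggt
MKI67 (chr10:128126424-128126543, minus strand): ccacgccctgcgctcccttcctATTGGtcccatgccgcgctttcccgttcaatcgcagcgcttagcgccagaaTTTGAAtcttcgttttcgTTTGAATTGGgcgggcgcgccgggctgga
CDC25B (chr20:3796190-3796309, plus strand): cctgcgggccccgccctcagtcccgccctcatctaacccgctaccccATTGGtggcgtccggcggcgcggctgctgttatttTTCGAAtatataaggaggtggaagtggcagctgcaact
CDC20 (chr1:43358861-43358980, plus strand): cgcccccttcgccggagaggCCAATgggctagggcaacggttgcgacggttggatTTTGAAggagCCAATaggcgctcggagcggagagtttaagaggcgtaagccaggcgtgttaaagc

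In CCNB2 the CCAAT boxes began at positions -120, -87 and -54 from the start and the homology region followed at -29. In CDC25C, BUB1B and MKI67 a TTTGAA began at -30, -23 and -29. DLGAP5 held its match in this stretch at -109 on the other strand. CDC20 held the motif at -65 with CCAAT on either side of it, and CDC25B held the second spelling at -38. Members with TTTGAA in any window were higher in 19 of 25 cases, with a median log2 fold change of 0.62. Matched members without it were higher in 5 of 9 cases and lower in 1, with a median of 0.57, and the 7 unmatched members were higher in 6 cases, with a median of 0.52. Of all 41 members 73.2% were higher, and of all tested genes 14.7%. The counts and medians of these 3 groups were not tested against each other, so no link between the motif and the change is drawn.

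**Figure D2:**
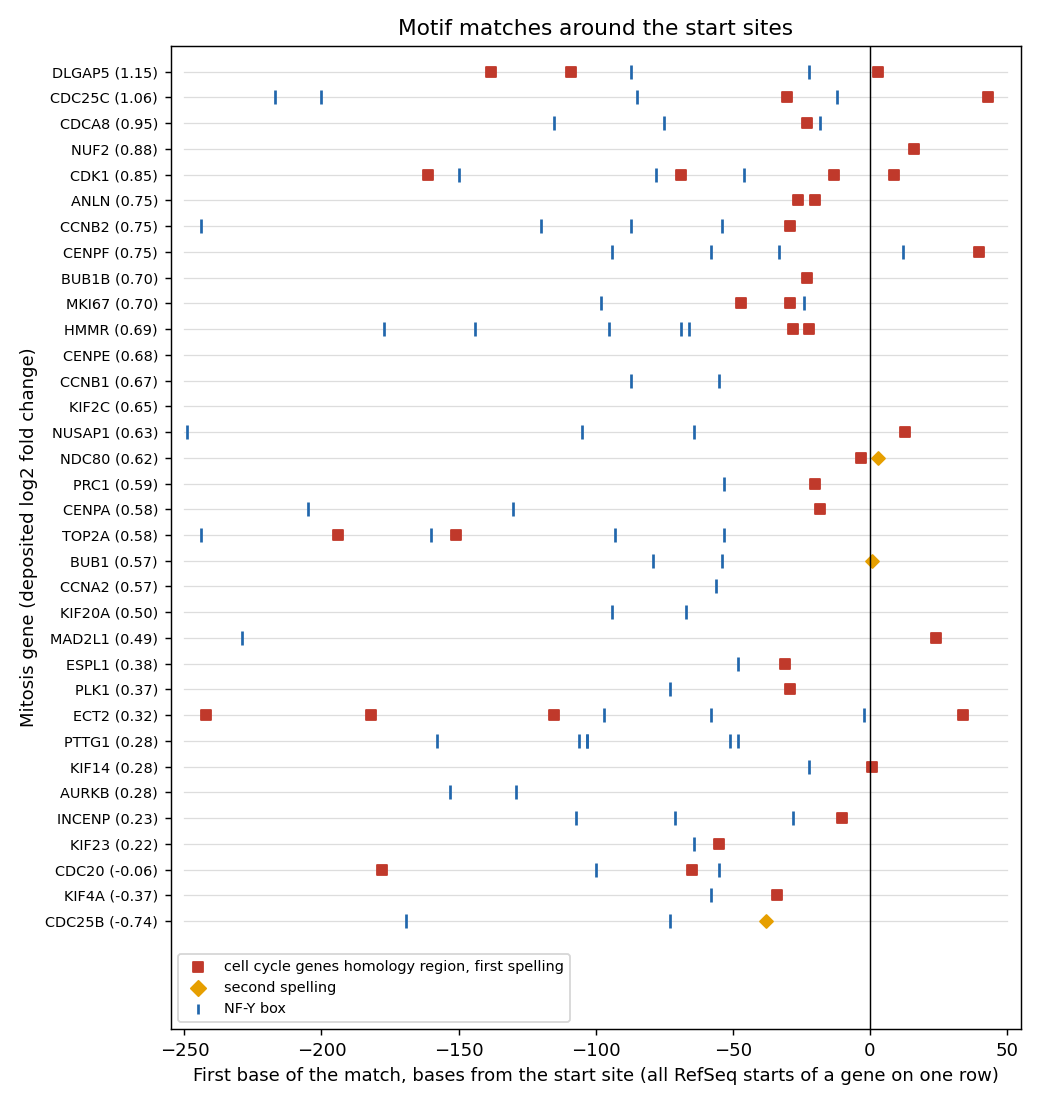
Position of the first base of each motif match (horizontal axis, bases from the start site) in the 34 mitosis genes matched in the RefSeq promoter table, ordered by deposited log2 fold change from DLGAP5 (1.15) to CDC25B (-0.74). Squares mark TTTGAA, diamonds TTCGAA and ticks CCAAT, and squares lie mostly close to the start site with ticks before them.

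With the errors as deposited, CDK1 and its cyclins passed as higher, while the CDC25 phosphatases passed in opposite directions. With the standard errors widened as above, CDK1 and CCNB1 still passed as higher and CDC25B as lower. CCNB2, CCNA2 and CDC25C did not pass that test, at adjusted p-values of 0.349, 0.638 and 0.382. The opposite directions of the phosphatases thus rested on the deposited errors. Against a 1.5-fold change, CDK1 alone among these genes passed. CDK1 had the largest statistic of all members, higher by 0.85 on the log2 scale (SE 0.05, adjusted p = 2.09e-67), and a mean normalized count of 6543 in the authors' deposited table. That is a 1.81-fold difference with a 95% interval of 1.69 to 1.93 in the authors' deposited table. Among the cyclins that activate CDK1, CCNB1 was at 0.67 (SE 0.07, adjusted p = 7.11e-18), CCNB2 at 0.75 (SE 0.20) and CCNA2, which also acts in S phase, at 0.57 (SE 0.20, adjusted p = 0.0159) by the authors' deposited table. CCNB2 had a mean of 230 against 2850 for CCNB1 in the authors' deposited table, and its interval was wider.

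CDC25C, a phosphatase that activates CDK1 at mitotic entry, was higher by 1.06 on the log2 scale (SE 0.29, adjusted p = 0.00122), with a mean normalized count of 176 in the authors' deposited table. CDC25B, the related phosphatase that acts earlier, was at -0.74 (SE 0.07, adjusted p = 3.06e-26), with a mean of 3372 in the authors' deposited table. CDC25B was thus 0.599 times as high in the numerator group (95% interval 0.547 to 0.657 in the authors' deposited table), the only member that was lower past the threshold. The intervals of the 2 phosphatases did not overlap, although a test of the difference between genes of the same samples could not be made from the table.

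Among the Polo and Aurora kinases, AURKA, the kinase of centrosome maturation, was at 0.70 (SE 0.07, adjusted p = 2.78e-22) by the authors' deposited table. PLK1, which drives several steps of mitosis, was at 0.37 (SE 0.14), close to the threshold at an adjusted p of 0.0359 in the authors' deposited table. AURKB, the kinase of the chromosomal passenger complex, had 0.28 (SE 0.15, adjusted p = 0.156) by the authors' deposited table and did not pass.

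Of the partners of AURKB in the chromosomal passenger complex, 2 of 3 passed, beside 29.5% of all tested genes. CDCA8 (borealin) was higher by 0.95 (SE 0.07, adjusted p = 4.16e-39) and BIRC5 (survivin) by 0.52 (SE 0.14) on the log2 scale in the authors' deposited table. INCENP, the scaffold that activates AURKB, had 0.23 (SE 0.17, adjusted p = 0.354) by the authors' deposited table.

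Checkpoint genes were higher in 4 of 5 members, beside 14.7% of all tested genes. TTK, the kinase that starts checkpoint signalling, was at 0.95 (SE 0.18), and BUB1B, a subunit of the inhibitor of the APC/C, at 0.70 (SE 0.06, adjusted p = 2.30e-28) by the authors' deposited table. The kinase BUB1 was at 0.57 (SE 0.09) and MAD2L1, which binds CDC20, at 0.49 (SE 0.07) by the authors' deposited table. BUB3, a partner of BUB1 and BUB1B, had 0.11 (SE 0.07, adjusted p = 0.224) by the authors' deposited table. BUB3 was well measured, with a mean normalized count of 3985, and its interval reached 1.18-fold at most in the authors' deposited table, short of the members' median of 1.49-fold.

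Kinetochore genes were higher in 4 of 5 members, beside 14.7% of all tested genes, over a narrow range of log2 fold changes. NUF2 and NDC80, which together form part of the microtubule-binding NDC80 complex, were at 0.88 (SE 0.11) and 0.62 (SE 0.24) by the authors' deposited table, although NUF2 had a mean of 1084 and NDC80 a mean of 106. CENPE, a kinetochore motor that carries chromosomes to the spindle equator, was at 0.68 (SE 0.14), and CENPF, a large kinetochore protein, at 0.75 (SE 0.29, adjusted p = 0.0368) by the authors' deposited table. CENPA, the histone variant of centromeres, had 0.58 (SE 0.34, adjusted p = 0.204) at a mean of 78.9 in the authors' deposited table, and did not pass.

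Mitotic kinesins passed in 1 of the 5 tested members (20.0%). Among all tested genes 14.7% were higher, so this count is no result about the kinesins. KIF2C, which depolymerizes microtubules at centromeres, was at 0.65 (SE 0.18, adjusted p = 0.00169) by the authors' deposited table. KIF23 and KIF14, motors of cytokinesis, had 0.22 (SE 0.11, adjusted p = 0.143) and 0.28 (SE 0.12, adjusted p = 0.0606) at means of 1477 and 1703 in the authors' deposited table, and both intervals ended below the members' median. KIF14 passed when log2 fold changes were centred on the median gene and when the adjustment took in only genes that averaged 72.0 or more. KIF20A had 0.50 (SE 0.39) at a mean of 36.4, and KIF4A -0.37 (SE 0.74) at a mean of 9.33 in the authors' deposited table, so that these 2 were too imprecise to place. The reads of KIF4A can be shared with KIF4B, a near-identical gene on chromosome 5, whose mean was 9.80 in the authors' deposited table, and KIF4A is therefore uncertain.

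The factors of spindle microtubules included the largest differences of the list and all 4 were higher, beside 14.7% of all tested genes. TPX2, which activates AURKA and nucleates microtubules, was at 1.48 (SE 0.37, adjusted p = 0.000405), a 2.80-fold difference at a mean of only 111 in the authors' deposited table. DLGAP5, which stabilizes spindle microtubules near chromosomes, was at 1.15 (SE 0.15, adjusted p = 1.22e-13) at a mean of 946 in the authors' deposited table. HMMR and NUSAP1, microtubule-binding proteins of the spindle, were at 0.69 (SE 0.12) and 0.63 (SE 0.07) by the authors' deposited table.

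Of the genes of cytokinesis, ANLN, a scaffold of the contractile ring, was at 0.75 (SE 0.20), and PRC1, which bundles the microtubules of the central spindle, at 0.59 (SE 0.15) by the authors' deposited table. ECT2, the exchange factor that activates the GTPase RhoA at the division plane, was at 0.32 (SE 0.08, adjusted p = 0.000246) by the authors' deposited table. All 3 passed, beside 29.5% of all tested genes, and the interval of ECT2 ended at 0.47, below the members' median.

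Genes of the step to anaphase had log2 fold changes below the members' median of 0.58, although the intervals of UBE2C and PTTG1 held that median. UBE2C, a ubiquitin-conjugating enzyme of the APC/C, was at 0.45 (SE 0.16, adjusted p = 0.0193), and ESPL1, the separase that cuts cohesin, at 0.38 (SE 0.09, adjusted p = 9.54e-05) by the authors' deposited table. Securin (PTTG1), the inhibitor of separase, had 0.28 (SE 0.18, adjusted p = 0.270), and CDC20, the activator of the APC/C, had -0.06 (SE 0.29, adjusted p = 0.918) by the authors' deposited table. The interval of CDC20 in the authors' deposited table ran from -0.63 to 0.51, so that its direction was not settled. It ended below the members' median.

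The proliferation marker MKI67, which coats mitotic chromosomes, was at 0.70 (SE 0.08, adjusted p = 9.08e-16) by the authors' deposited table. TOP2A, the topoisomerase that untangles sister chromatids, was at 0.58 (SE 0.19, adjusted p = 0.0124) by the authors' deposited table. FOXM1, a transcription factor of many genes of this list, was at 0.22 (SE 0.07, adjusted p = 0.00419), the smallest difference among the 30 higher members in the authors' deposited table. At a mean of 2870 its 95% interval of 0.09 to 0.36 in the authors' deposited table ended below the members' median.

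With the errors as deposited, the 95% intervals of 24 members held the median of 0.58, those of 7 (CDK1, CDCA8, BUB1B, TTK, NUF2, TPX2 and DLGAP5) lay above it and those of 10 lay below it. Those below were CDC25B, AURKB, INCENP, BUB3, KIF23, KIF14, ECT2, CDC20, ESPL1 and FOXM1. With the errors multiplied by 2.03, a setting added for these intervals after the values were seen, those of CDK1 and CDCA8 still lay above the median and those of CDC25B, BUB3 and FOXM1 below it, while 36 held it. The size of the change did not follow the level, with a Spearman correlation of -0.02 across the 41 genes, which come from the same libraries. Precision did follow the level, with a median standard error of 0.29 for the 12 members with a mean under 300 and 0.11 for the other 29. Of the 12, 7 were higher, and of the 29, 23 were higher, beside 14.7% of all tested genes.

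**Figure D3:**
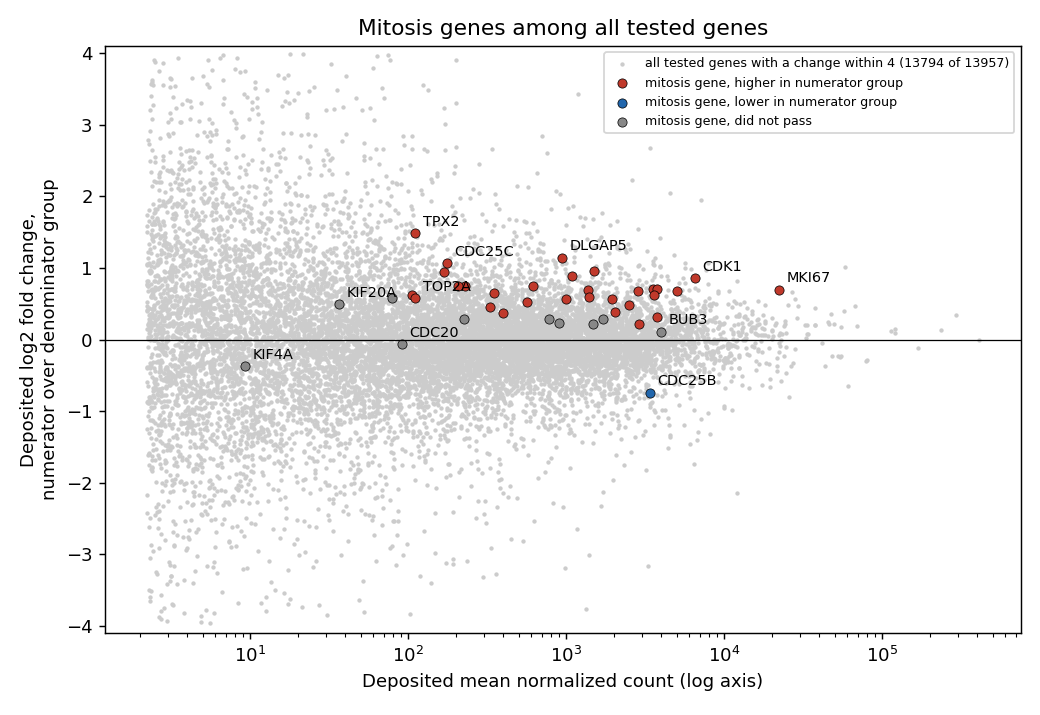
Deposited log2 fold change (vertical axis, numerator over denominator group) against deposited mean normalized count (horizontal log axis) for 13794 of 13957 tested genes with a change within 4 (light grey) and for the 41 mitosis genes (large points). Most mitosis genes lie in a band above 0 at every level, with CDC25B (-0.74) below it.

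Levels can be compared between genes only per length, here as the mean normalized count per kb of merged exons in GENCODE 29. The median was 234 per kb for the members and 104 per kb for tested genes that averaged 72.0 or more, from the authors' deposited table. MKI67 led with 1745 per kb, followed by CDK1 with 1665, NUSAP1 with 1249, AURKA with 1209 and CCNB1 with 1114 per kb, from the means of the authors' deposited table. The lowest were CENPF with 17.6, TOP2A with 17.2, KIF20A with 9.21 and KIF4A with 2.06 per kb, from the same deposited means. The table gives no error for a mean, so neighbours in this order cannot be said to differ. Per kb of the longest protein-coding transcript, 9 of the 10 highest members were the same, and CDK1 came before MKI67.

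**Figure D4:**
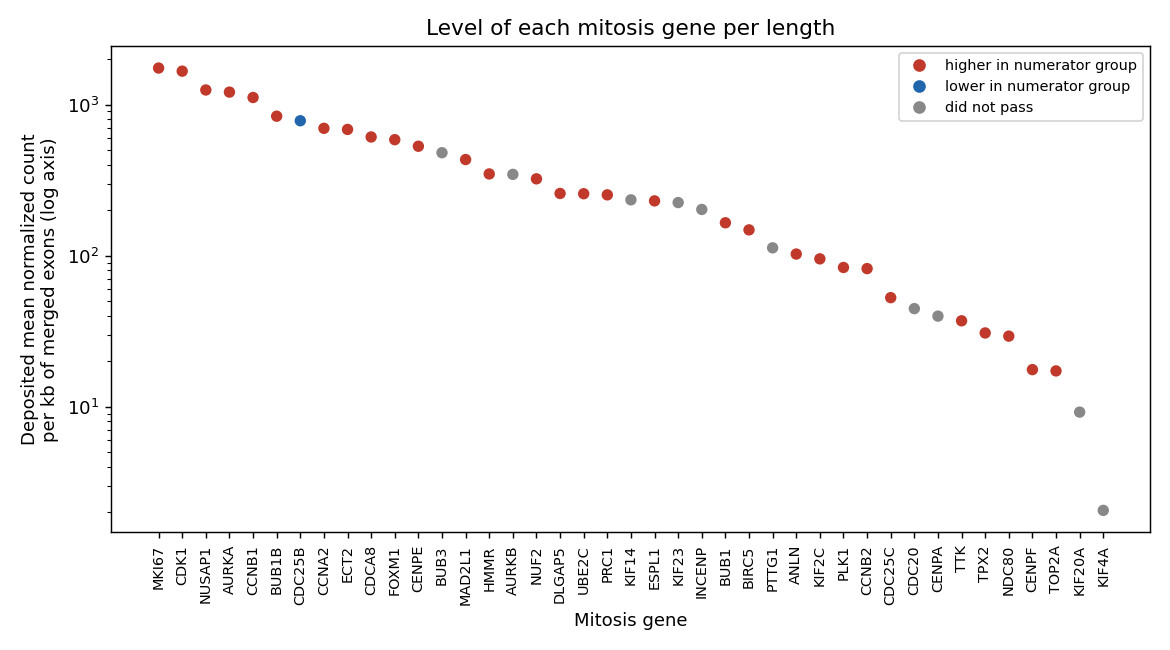
Deposited mean normalized count per kb of merged exons (vertical log axis) for the 41 mitosis genes, from the highest (MKI67, 1745) to the lowest (KIF4A, 2.06), coloured by the call. Members that were higher in the numerator group are found at nearly every level, and KIF20A and KIF4A stand at the low end without a call.

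Some means may count reads of other genes. Named copies were found for 12 members, and 8 of the 18 copies in the authors' deposited table were at a mean of 0. The largest share was that of KIF4B, followed by UBE2CP5 with a mean of 48.8 (14.8% of the mean of UBE2C) by the authors' deposited table. Exons of 16 members overlap those of another gene in GENCODE 29, for 13 of them on the opposite strand. Other protein-coding genes annotated on the same strand, which were not analysed here, cover 62.2% of the exon bases of NUSAP1 and 57.6% of those of PRC1. ITFG2 covers 15.9% of FOXM1 and EXOSC9, with a mean of 2627 in the authors' deposited table, 9.08% of CCNA2 on the opposite strand. FAM53C, with a mean of 80.1 in the authors' deposited table, covers 8.78% of CDC25C, also on the opposite strand. Whether the counting used strand is not given in the sources used here, so these values are uncertain to that extent.

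Other genes of the same machinery were set beside the members in 9 lists of 142 genes, of which 138 were tested. Of these, 62 were higher (44.9%) and 4 lower (2.9%) in the authors' deposited table, with a median log2 fold change of 0.25, beside 14.7% higher and 14.8% lower among all tested genes. Among genes of the centrosome and spindle, 14 of 24 were higher (58.3%) and 0 lower, led by CENPJ, a centriole assembly factor, at 1.39 (SE 0.10), and CKAP2L, a spindle protein, at 1.05 (SE 0.11) by the authors' deposited table. ASPM, a spindle pole protein, was at 0.80 (SE 0.08) by the authors' deposited table. Condensin, cohesin and their regulators had 9 of 19 higher (47.4%) and 0 lower, led by the condensin subunits NCAPD2 at 0.89 (SE 0.15), NCAPG2 at 0.69 (SE 0.04) and SMC2 at 0.64 (SE 0.07) per the authors' deposited table.

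Kinesins outside the list were higher in 5 of 7 cases (71.4%, against 14.7% of all tested genes), with KIF15, a spindle motor, at 1.30 (SE 0.46), KIF2A, a microtubule depolymerase that also acts outside mitosis, at 0.81 (SE 0.05), and KIF18B at 0.36 (SE 0.09) by the authors' deposited table. Inner kinetochore genes were higher in 7 of 17 cases (41.2%), with CENPH at 0.90 (SE 0.35), the CENPA chaperone HJURP at 0.85 (SE 0.12) and CENPU at 0.79 (SE 0.07) by the authors' deposited table. Outer kinetochore and checkpoint genes were higher in 7 of 18 cases (38.9%), with SKA1 at 0.91 (SE 0.18), KNTC1 at 0.88 (SE 0.07) and SPC24 at 0.71 (SE 0.12), while MAD2L1BP was at -0.31 (SE 0.09) by the authors' deposited table. Cytokinesis genes were higher in 5 of 8 cases (62.5%), with the non-muscle myosin MYH10 at 2.67 (SE 0.07), the kinase CIT at 0.92 (SE 0.14) and CEP55, a factor of abscission, at 0.78 (SE 0.06) by the authors' deposited table.

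Regulators of CDK1 entry were higher in 9 of 16 cases (56.2%, against 14.7% of all tested genes), with PBK at 0.67 (SE 0.27), the centrosomal kinase NEK2 at 0.52 (SE 0.15) and CDCA3 at 0.51 (SE 0.09), and the phosphatase inhibitor ENSA was at -0.18 (SE 0.05) by the authors' deposited table. Genes of the APC/C were higher in 5 of 16 cases (31.2%), with ANAPC1 at 0.82 (SE 0.17), UBE2S at 0.53 (SE 0.10) and ANAPC16 at 0.44 (SE 0.06), and ANAPC4 was at -0.31 (SE 0.11) by the authors' deposited table. The median log2 fold change of the APC/C list was 0.06. The genes of the DREAM, MuvB and B-MYB complexes, which bind the homology region, had 1 of 13 higher and 1 lower (7.69% each), with a median of 0.03. Among all tested genes 14.7% were higher and 14.8% lower, so these counts are no result about the list. RBBP4, a histone-binding subunit, was at 0.15 (SE 0.04, adjusted p = 0.00124) and the pocket protein RBL2 at -0.30 (SE 0.11, adjusted p = 0.0297) by the authors' deposited table.

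**Figure D5:**
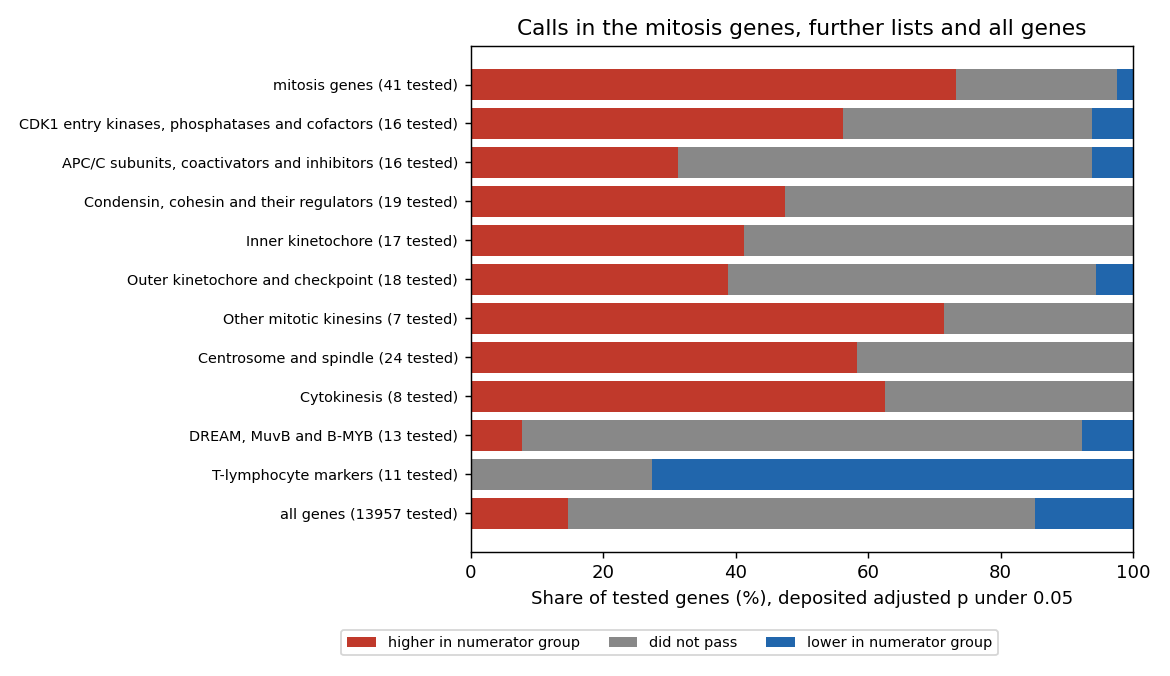
Share of tested genes (horizontal axis, %) that were higher (red), did not pass (grey) or were lower (blue) in the numerator group at a deposited adjusted p under 0.05, for the 41 mitosis genes, 9 further lists, T-lymphocyte markers and all 13957 tested genes. The red share is 73.2% for the mitosis genes and 14.7% for all genes, and the DREAM, MuvB and B-MYB list has 1 higher gene of 13.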

How the data were processed

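STAR, Salmon and hg38 appear in the list of tools and builds per the submitters' processing notes, with no role or version. Per the file headers, the deposited table has the column names of a DESeq2 results table: a mean normalized count (a signal), a log2 fold change with its log2-scale error, a Wald score, a p-value and an adjusted p-value. Benjamini-Hochberg adjustment of the deposited p-values over 13957 genes gave the deposited adjusted values to within 3.66e-07. The program, model and libraries behind it are not stated there, and the depth of each library is unknown.

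The deposited calls at 0.05 were used over all genes, and members were read out of them. Symbols were matched for 33483 identifiers without version, and exon lengths came from GENCODE 29 (GRCh38). Intervals span 1.96 standard errors to each side. Alternatives were a test against a 1.5-fold change, errors multiplied by 2.03, other filters, centring and a threshold of 0.01, all applied to the deposited values. The code of the 1.5-fold and widened-error tests was first run on simulated statistics. The planned fits on values per sample were not run. All members are named, with up to 3 genes per further list, those of largest change among called genes with a mean of at least 72.0. Genes that were lower were added after their values were seen. Members and lists were chosen with earlier results of these data known. Python 3.11.15, numpy 2.4.6, pandas 2.3.3, scipy 1.17.1 and matplotlib 3.10.9 were used.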

Additional observations from a re-analysis of the deposited data

How the results depend on the processing

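No paired analysis was possible because the table holds no value per sample. For the same reason leaving out replicates, another normalization and another tool were not run. Of 41 members, 31 passed in the deposited comparison (30 higher and 1 lower). Against a 1.5-fold change 3 passed, 3 higher and 0 lower, beside 4.68% of all genes. With widened errors 12 passed, 11 higher and 1 lower, beside 8.57% of all genes. The cause of these lower counts is the alternatives' own construction, a stricter null hypothesis and larger errors. Without the filter on low means 28 passed (NDC80, CENPF and PLK1 did not), beside 18.0% of all genes, and at an adjusted p of 0.01 there were 25, beside 22.6%. KIF14 was added among genes of at least 72.0 (32 passed, beside 45.7% of those genes) and after centring (32, beside 29.6%), and among protein-coding genes 31 passed, beside 32.4%. The median log2 fold change was 0.59 after centring and among the 39 members of at least 72.0. The 12 members with a mean under 300 had a median standard error of 0.29, against 0.11 for the other 29; the depth of the libraries is unknown. With widened errors, a setting added after the values were seen, the intervals of 5 members missed the members' median, against 17 as deposited.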

Other observations

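Genes of the DREAM, MuvB and B-MYB list that did not pass had values on both sides of 0 in the authors' deposited table. LIN9 had a log2 fold change of 0.24 (adjusted p = 0.0813) and MYBL1 0.22 (adjusted p = 0.0544), and E2F4, a repressor partner of the pocket proteins, had -0.59 (adjusted p = 0.0685) in the authors' deposited table. MYBL2, which encodes B-MYB, had -0.36 (SE 0.31, adjusted p = 0.437) at a mean normalized count of 157 in the authors' deposited table.

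The levels within the mitosis genes spanned an 848-fold range per kb. Its low end was KIF4A, whose mean of 9.33 was below 72.0 and is uncertain because of KIF4B. The level of MKI67 per kb was 101 times that of TOP2A in the authors' deposited table, and both encode proteins of mitotic chromosomes. The table does not show which reads entered the mean of each gene.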
